A study of Arabidopsis thaliana with 8 samples.

Results

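The comparison described here set plants kept for 7 d at 4 °C against plants kept for 24 h at 4 °C, so that it follows what changed in leaves between the end of the first day and the end of the first week of cold. It rests on 4 of the 8 arrays of the series, 2 labelled 7 d and 2 labelled 24 h, which were chosen by those labels alone. Every probe set of the array other than the manufacturer's controls took part. The plants were Arabidopsis thaliana of the accession Col-0, with no mutation or transgene named, grown on soil at 22 °C in continuous light of 100 µmol m-2 s-1, and whole above-ground tissue without roots was harvested. At 4 °C the light was about 25 µmol m-2 s-1 at 24 h and at 7 d alike, so light and temperature did not differ between the times compared. Both arrays at 0 h (warm plants in the brighter light) and both at 1 h in the cold are used for reference and for the estimate of spread. The labels give an age of 18 d for every sample, also after 7 d of cold, beside a stratification of 4 d and only 10 d at 22 °C, which leaves the plants' age at harvest unsettled. Warm plants of the age reached after 7 d were not analysed here, so time in the cold and further growth cannot be told apart.

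Cold acclimation is the process by which Arabidopsis and other temperate plants become more tolerant of freezing during days at low, non-freezing temperature. Within hours, CBF transcription factors switch on COR genes, whose products include hydrophilic proteins that protect membranes and enzymes. Over days, leaves then adjust photosynthesis, membranes, sugars and growth. RNA was hybridised to ATH1 arrays, which hold a probe set of short oligonucleotides for most genes known at their design, and the values are MAS5 signals, a linear brightness per probe set. A change is given as the difference of log2(signal + 6.07) between times, and a probe set passed where limma's adjusted p, over all probe sets tested, was under 0.05. "Rose" and "fell" are used only for those. Signals are given in the order replicate 1, replicate 2. Nothing in the labels says whether replicates were separate plantings, so a p-value measures the spread between these arrays, which may be partly technical.

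Of 14756 probe sets tested, 637 were higher at 7 d (4.32%) and 622 were lower (4.22%). A gene list with about that share of members past the threshold is not set apart from the other probe sets. At least a 2-fold change was seen for 208 of the higher and 232 of the lower ones. These were 79 and 158 with a pseudocount of 32, 137 and 336 after median centring, 119 and 123 without replicate 1 of 24 h, 94 and 118 when its replicate 2 was dropped, and 92 and 149 when replicate 2 of 7 d was. All 1259 had 7 d arrays that did not overlap the 24 h arrays, as had many that did not pass: the arrays of the 2 times were separated for 4847 probe sets on the higher side and 3396 on the lower side. The probe sets that passed stood for 667 genes with a name or locus tag, 379 higher and 288 lower, and a further 243 higher and 326 lower probe sets have no gene in the annotation used and are not described. Centring each array on its median instead of keeping the deposited scaling gave 396 higher and 1005 lower, 28.3% of calls on the higher side against 50.6%, and it moved the median change of all probe sets down by 0.11. Quantile normalization gave 403 and 579. With 2 arrays per time, each array carried much of the count: 134 higher and 142 lower passed without replicate 1 of 24 h, 101 and 135 without its replicate 2, 381 and 432 without replicate 1 of 7 d, and 127 and 200 without its replicate 2. Of 103 genes that passed and were taken for description, 27 passed without each of the 8 arrays in turn and under every other setting tried. These 27 were AT3G04210, AT1G52000, AT1G30250, AT1G54820, AT1G68600, GSTU27, SCPL26, rpoB, rps2, GTR2 and NQR (AT1G49670), which rose, and AT1G20030, AT1G51090, EXLA1, AT1G48100, AT1G68500, MSRB6, PYK10, AT3G17130, AT1G32860, LHCB4.3, AT4G36010, PSAE-1, TIL, PMEAMT, SERPIN1 and AtRZ-1c, which fell. Every other rise or fall named below was lost without at least 1 array of 24 h or 7 d.

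**Figure D1:**
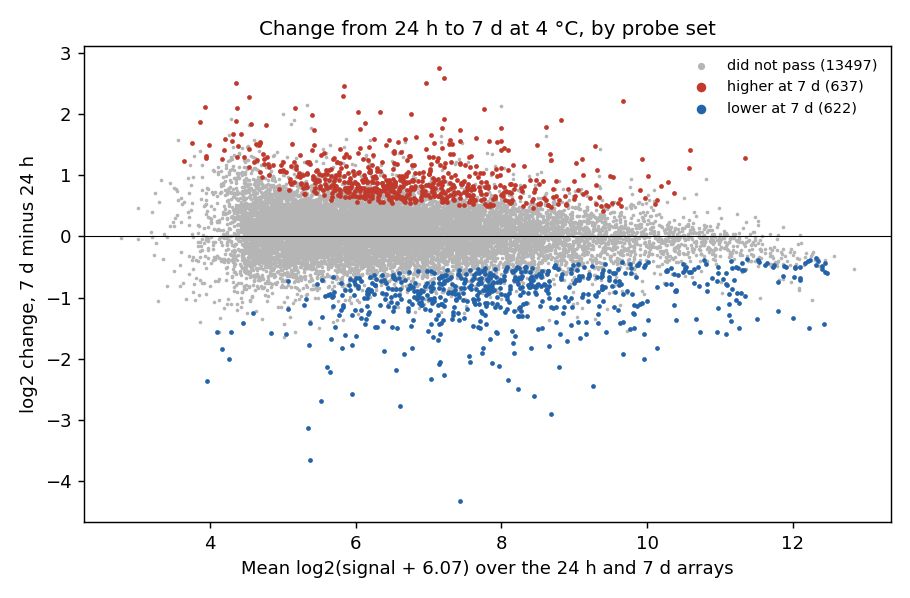
Each point is 1 of 14756 probe sets, with the mean log2 level over the 4 arrays on the x axis and the log2 change from 24 h to 7 d on the y axis. Red points (637) were higher at 7 d and blue points (622) lower, and the cloud bends downward at the bright end.

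**Figure D2:**
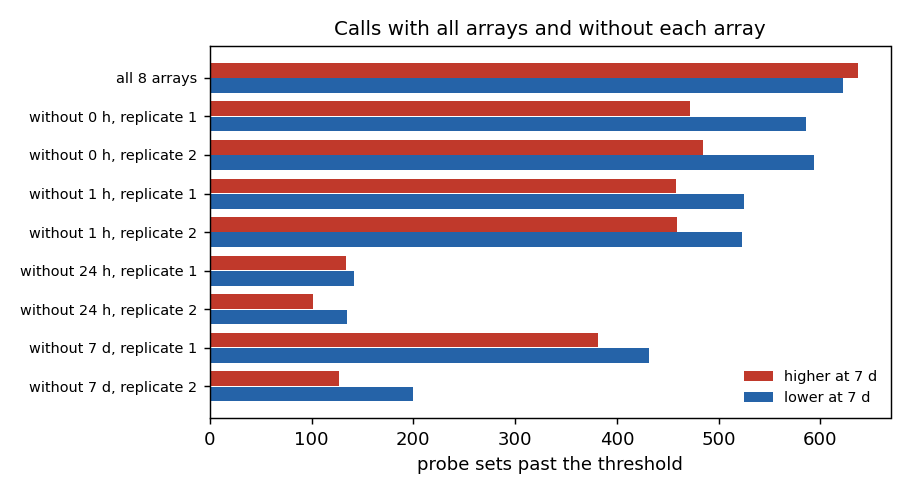
Number of probe sets past the threshold (x axis) with all 8 arrays and with each array left out in turn, red for higher and blue for lower at 7 d. The counts are lowest without 24 h replicate 2, with 101 higher and 135 lower.

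The median change over all probe sets tested was 0.08, but it depended on brightness. Over 10 classes of brightness with equal numbers of probe sets it was 0.12 in the dimmest and -0.09 in the brightest, and among the 100 brightest, with signals from 2959 to 7320, it was -0.40, with 30 of them lower and 0 higher. The highest signal of an array was 9346 and 8817 at 24 h and 6083 and 6096 at 7 d. Quantile normalization, which gives all arrays one distribution of signals, brought the median of those 100 to 0.02. Falls of COR and photosynthesis genes, which are bright, are given below in the deposited scaling and after quantile normalization. Median centring, not given gene by gene, made more photosynthesis genes lower. With it 5 of 8 nuclear photosystem, antenna and electron transport genes were lower, against 3 in the deposited scaling. Of 46 plastid-encoded photosynthesis genes 11 were lower, against 3. The COR list had 1 lower in both. Other measures of the arrays were as follows: the median signal was 34.3 and 32.8 at 24 h and 37.5 and 35.9 at 7 d, the 3′ to 5′ signal ratio of the GAPDH control was 1.34 and 1.18 against 1.36 and 1.17, and that of the ubiquitin control 2.39 and 2.64 against 2.13 and 2.14. That of the actin control was 6.88 and 7.79 against 6.76 and 5.56.

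The largest falls were of genes that had been far above their warm level at 24 h. AT1G51090 read 31.96 and 18.5 at 0 h, 103 and 55.6 at 1 h, 1076 and 1154 at 24 h and 166 and 125 at 7 d. Its 7 d arrays were well under both 24 h arrays and still above both warm arrays, and it fell by 2.90 on the log2 scale (SE 0.29, adjusted p = 0.00175). AT1G48100 read 39.2 and 41.4 at 0 h, 40.1 and 50.4 at 1 h, 779.9 and 929 at 24 h and 157 and 116 at 7 d and fell by 2.60 (SE 0.18, adjusted p = 0.000632). AT1G68500 read 25.01 and 25.9 at 0 h, 33.9 and 35.2 at 1 h, 775 and 642 at 24 h and 143 and 99.7 at 7 d and fell by 2.50 (SE 0.19, adjusted p = 0.000756). These genes have only a locus tag in the annotation, and in each the 24 h arrays were the highest of the series. At 1 h AT1G48100 and AT1G68500 were still close to their warm level. AT1G20030, the most changed gene with a name or locus tag, fell by 3.66 (SE 0.28, adjusted p = 0.000756) and ended under its warm level, with signals of 22.6 and 25.99 at 0 h, 40.02 and 45.98 at 1 h, 160.0 and 123 at 24 h and 9.42 and 2.66 at 7 d. The 7 d signals of AT1G20030 were near the pseudocount of 6.07, so the size of its fall depends on that setting. AT3G17130, AT1G32860 and AT4G36010 fell by 2.12, 2.09 and 2.05. Of the 12 largest falls, 11 passed without each of the 4 arrays in turn and under every other setting tried, and LEA4-5, described with the dehydration genes, was the exception.

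**Figure D3:**
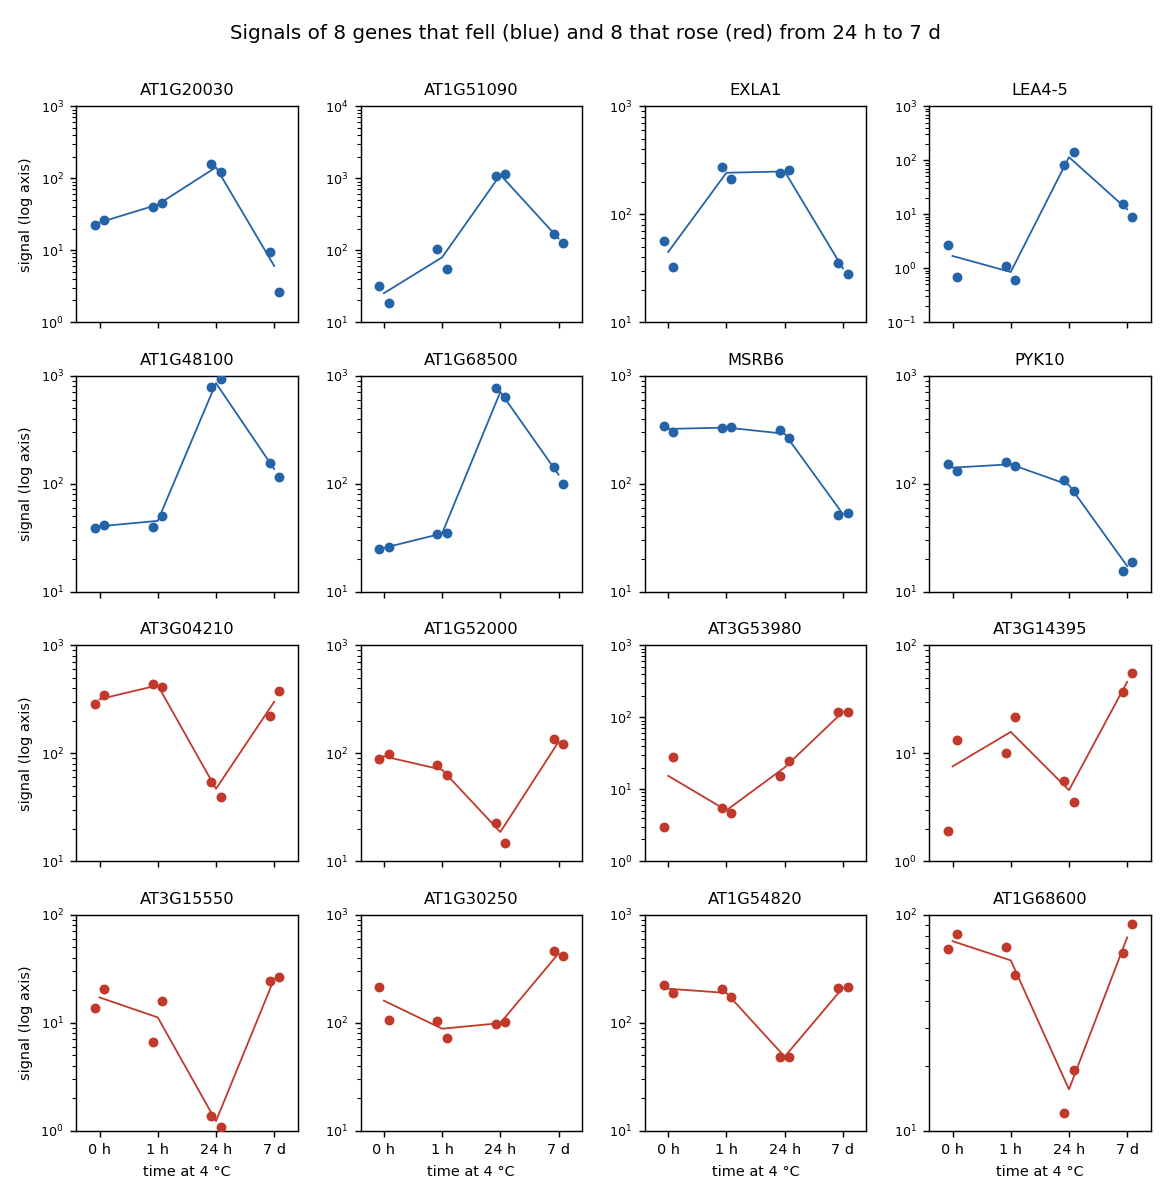
MAS5 signal (log axis) on each array at 0 h, 1 h, 24 h and 7 d for the 8 genes with the largest falls from 24 h to 7 d (blue) and the 8 with the largest rises (red). Points are arrays and lines join the means of the 2 arrays. In the blue panels the mean is highest at 24 h, MSRB6 and PYK10 apart, and in 5 of the red panels, those of AT3G04210, AT1G52000, AT3G15550, AT1G54820 and AT1G68600, 24 h is far the lowest.

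A few large falls were of genes not above their warm level at 24 h. MSRB6, a methionine sulfoxide reductase, an enzyme class that repairs oxidised methionine in proteins, read 345 and 298 at 0 h, 326 and 336 at 1 h, 316 and 265 at 24 h and 51.8 and 52.97 at 7 d. Its 7 d arrays agreed closely and lay far under the other 6, and it fell by 2.34 (SE 0.14, adjusted p = 0.000265). LHCB4.3, a minor antenna protein of photosystem II, read 756 and 767 at 0 h, 818 and 735 at 1 h, 505 and 447 at 24 h and 107 and 109.8 at 7 d and fell by 2.07 (SE 0.12, adjusted p = 0.000265), and by the same amount, 2.07, after quantile normalization. Its relatives did not pass in the deposited scaling: LHCB4.1 read 5139 and 5085 at 24 h and 4139 and 4291 at 7 d, and LHCB4.2 read 2384 and 1882 at 24 h and 2780 and 2654 at 7 d. A test between these genes was not made.

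PYK10, a beta-glucosidase of the ER bodies that is abundant in roots, read 152 and 130.1 at 0 h, 158 and 144 at 1 h, 109 and 85.3 at 24 h and 15.6 and 18.9 at 7 d and fell by 2.14 (SE 0.17, adjusted p = 0.000797). It is 1 of 7 root genes listed to check the harvested tissue, of which the annotation names 3. The summed signal of these 3 was 138 and 91.2 at 24 h and 29.7 and 29.6 at 7 d. The other two, the root hair expansins EXPA7 and EXPA18, were too dim to be tested, EXPA7 at 15.01 and 2.203 at 24 h and 6.77 and 5.29 at 7 d, and EXPA18 at 13.9 and 3.69 and at 7.32 and 5.45. Whether the share of root tissue changed, and its part in the PYK10 result, was not tested. In whole tissue, here and in every result, fewer cells of a type and less RNA per cell cannot be told apart. No flower or seed gene of the lists was named by the annotation. Of the leaf genes listed it named RCA alone, whose lowest reading was 3404.

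Genes known for cold and dehydration declined from their 24 h level where they changed at all. Of 18 tested genes named for cold, drought, salt or dehydration, 6 fell and 0 rose, with a median change of -0.70. They were listed from the gene names with earlier results of these data known, so the count is a description. Among all probe sets 4.22% were lower. After quantile normalization 5 of the 18 were lower, and after median centring 8. The 6 that fell were LEA4-5, SIS, COR47, DI21, TIL and RD2. LEA4-5, a late embryogenesis abundant protein of a class that protects cells during drying, read 2.69 and 0.679 at 0 h, 1.102 and 0.596 at 1 h, 83.2 and 145 at 24 h and 15.8 and 8.82 at 7 d. Only its 24 h arrays reached the signal needed for a probe set to be tested, so it had to differ between the times to be tested at all. It fell by 2.69 (SE 0.39, adjusted p = 0.00732), a call lost without 24 h replicate 2 (adjusted p = 0.081). TIL, a lipocalin induced by heat and cold, read 637 and 710.1 at 0 h, 729 and 807 at 1 h, 2919 and 3279 at 24 h and 1591 and 1610 at 7 d and fell by 0.95 (SE 0.11, adjusted p = 0.00346). At 7 d it was still at more than its warm level on both arrays. SIS, named for induction by salt, fell by 1.68, DI21, named for drought, fell by 1.498, and RD2, named for response to desiccation, fell by 0.76. Of these 6 falls, 2 also passed without 24 h replicate 2, 3 without 7 d replicate 2, and 4 each without 24 h replicate 1 and 7 d replicate 1.

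The COR genes and other targets of CBF factors were above both warm arrays on both 7 d arrays, and 1 of 6 passed the test of 7 d against 24 h. All 6 lay lower at 7 d on average, with a median change of -0.87, or -0.59 after quantile normalization. The count that passed depended on the setting: 5 with the 24 h and 7 d arrays alone, 3 without either 1 h array, 2 with a pseudocount of 32, and 0 with no filter on low values or no variance trend. COR47, a dehydrin, read 750.1 and 333 at 0 h, 998 and 524 at 1 h, 8184 and 7912 at 24 h and 3308 and 2420 at 7 d and fell by 1.51 (SE 0.38, adjusted p = 0.0453). That call was lost without each of the 4 arrays in turn (adjusted p from 0.0745 to 0.177) and after quantile normalization (change -0.99, adjusted p = 0.161). LTI30, also a dehydrin, read 118 and 86.4 at 0 h, 161 and 71.2 at 1 h, 7291 and 6834 at 24 h and 3825 and 3078 at 7 d, with an adjusted p of 0.0726. COR15A, which protects chloroplast membranes in freezing, read 472 and 289 at 0 h, 396 and 211 at 1 h, 6316 and 6125 at 24 h and 4573 and 4293 at 7 d (change -0.49, adjusted p = 0.31). After quantile normalization the change of COR15A was -0.01. The differences of COR15B, COR27 and AT4G33980, the last listed by its locus tag, were -0.70, -0.70 and -1.16, with adjusted p of 0.203, 0.349 and 0.126. Against the warm control, LTI30 was at 6.04 on the log2 scale at 24 h and 5.00 at 7 d, COR15A at 4.05 and 3.56, and COR47 at 3.99 and 2.49. These differences share arrays with the comparison of 7 d and 24 h and with each other.

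Of the early cold factors, the annotation named the zinc finger repressor STZ alone. It read 61.9 and 128 at 0 h, 1329 and 1134 at 1 h, 136 and 165 at 24 h and 52.4 and 186 at 7 d, with its peak at 1 h, and its arrays at 24 h and 7 d overlapped. Of 2 clock genes tested 1 fell. It was AT5G52660, listed by its locus tag, which read 59.9 and 71.3 at 0 h, 70.3 and 61.9 at 1 h, 131 and 152 at 24 h and 83.6 and 77.7 at 7 d and fell by 0.77 (SE 0.16, adjusted p = 0.0241). The other, GI, which also acts in flowering, read 90.2 and 59.8 at 0 h, 114 and 74.6 at 1 h, 379.9 and 379 at 24 h and 557 and 389 at 7 d and did not pass (change 0.29, adjusted p = 0.504). The flowering regulator AGL24 did not pass, at 31.7 and 48.1 at 24 h and 30.8 and 32.1 at 7 d.

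RNA polymerase I transcribes the large ribosomal RNA precursor in the nucleolus, where processing factors cut and modify it and assemble the subunits of the cytosolic ribosome. Of 12 tested genes for polymerase I subunits and rRNA processing factors, 10 fell and 0 rose between 24 h and 7 d, with a median change of -0.79, against 4.22% lower among all probe sets. The list was assembled from the gene names with earlier results of these data known, so its count is a description. NRPA2, a large subunit of polymerase I, read 120.5 and 116 at 0 h, 107 and 123 at 1 h, 226 and 235 at 24 h and 123 and 97.96 at 7 d. Its 24 h arrays stood above the other 6, which overlapped one another, and it fell by 1.03 (SE 0.15, adjusted p = 0.00803). The largest subunit, NRPA1, read 70.98 and 60.8 at 0 h, 51.95 and 56.99 at 1 h, 134 and 137 at 24 h and 80.3 and 63.96 at 7 d and fell by 0.86 (SE 0.16, adjusted p = 0.0182). DIM1A, an rRNA dimethylase, read 86.2 and 95.3 at 0 h, 74.9 and 88.7 at 1 h, 160.5 and 152 at 24 h and 75.4 and 77.3 at 7 d and fell by 0.98 (SE 0.15, adjusted p = 0.00766). Its 7 d arrays lay under both warm arrays.

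Among the processing factors, YAO, a nucleolar WD40 protein, read 70.3 and 70.8 at 0 h, 57.7 and 81.8 at 1 h, 216 and 243 at 24 h and 131 and 104 at 7 d and fell by 0.94 (adjusted p = 0.0227). AT5G14520, annotated as pescadillo, which acts in large subunit assembly, read 252 and 280.2 at 0 h, 266 and 257 at 1 h, 704 and 614 at 24 h and 427 and 347 at 7 d and fell by 0.76 (adjusted p = 0.0185). Both were above both warm arrays at 7 d. The nucleolar RNA helicase PRH75 fell by 0.82, RBL (annotated as REBELOTE) by 0.81, IMP4, of the small subunit processome, by 0.62, AT5G41190 (annotated as NOB1, the nuclease that matures the small subunit rRNA) by 0.58 and AT5G52820 (annotated as NOTCHLESS) by 0.52. Both that did not pass are exosome subunits, which trim RNA: RRP41, at 136 and 125 at 24 h and 125 and 107 at 7 d, and RRP41L, at 67.5 and 51.5 at 24 h and 54.2 and 39.6 at 7 d. The 10 falls were modest and were lost with the 24 h arrays taken singly: 0 passed without either 24 h array, replicate 1 or replicate 2, against 7 without 7 d replicate 1 and 2 without 7 d replicate 2. Of 9 subunits of the other nuclear RNA polymerases, 0 fell and 1 rose, NRPB9B, with signals of 49.7 and 78.6 at 24 h and 133 and 127 at 7 d (change 0.99, adjusted p = 0.0418). That call was lost after quantile normalization (adjusted p = 0.0704) and after median centring (adjusted p = 0.0634). The difference between these lists was not tested.

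**Figure D4:**
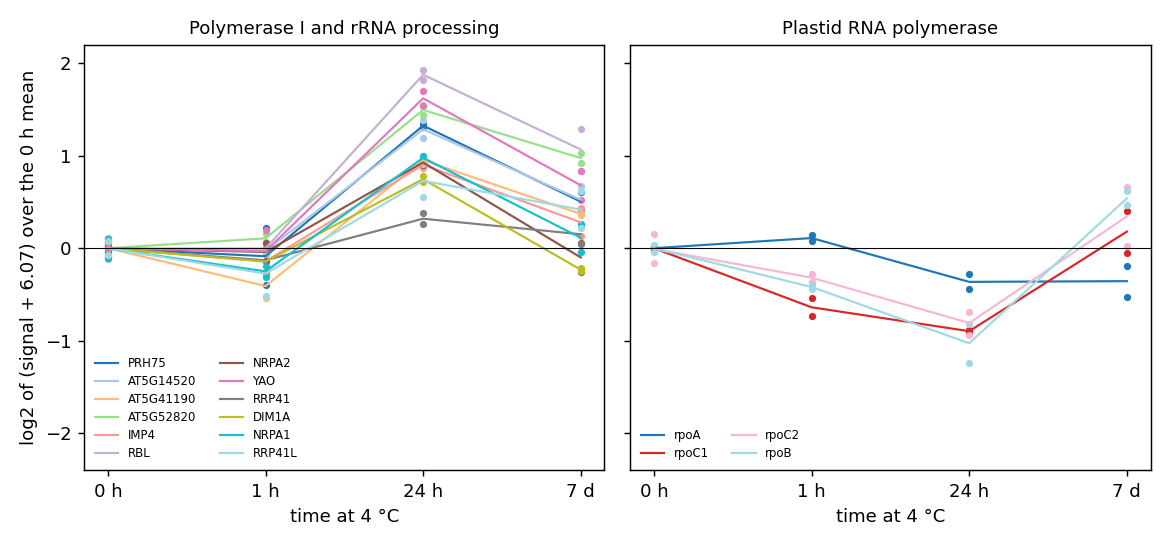
log2 of (signal + 6.07) over the mean of both 0 h arrays, on each array (points) and as a mean (lines), for 12 polymerase I and rRNA processing genes (left) and 4 plastid RNA polymerase genes (right). At 24 h the left-hand genes are above and the right-hand genes below their warm level, and by 7 d rpoB, rpoC1 and rpoC2 have risen while rpoA has a mean change of 0.01.

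The genes of plastid DNA moved in both directions. Plastids carry their own RNA polymerase, whose subunits are encoded by rpoA, rpoB, rpoC1 and rpoC2, the last 3 in one operon that a nuclear-encoded phage-type polymerase reads and that rps2 follows. Of the 4 subunit genes 3 rose, against 4.32% higher among all probe sets. This list too was assembled with earlier results of these data known. The rpoB gene read 184 and 174 at 0 h, 129.9 and 135 at 1 h, 72.3 and 99.2 at 24 h and 249 and 277 at 7 d. Its 7 d arrays were the highest of the series and its 24 h arrays the lowest, and it rose by 1.57 (SE 0.17, adjusted p = 0.0019). The rpoC1 gene read 791 and 819 at 0 h, 552 and 480.4 at 1 h, 426 and 434 at 24 h and 779 and 1069 at 7 d and rose by 1.08 (SE 0.16, adjusted p = 0.00732), and rpoC2 read 325 and 405 at 0 h, 283 and 300.5 at 1 h, 225 and 188 at 24 h and 372 and 581 at 7 d and rose by 1.15 (SE 0.21, adjusted p = 0.0175). Their neighbour rps2, for a ribosomal protein, read 1185 and 1372 at 0 h, 1098 and 1135 at 1 h, 713 and 743 at 24 h and 1354 and 1555 at 7 d and rose by 0.99 (SE 0.12, adjusted p = 0.00346). In contrast rpoA, which lies elsewhere on the plastid genome, read 821 and 732 at 24 h and 694 and 877 at 7 d and did not pass (change 0.01, adjusted p = 0.979). The calls of rpoB and rps2 held without each array and under every other setting. Those of rpoC1 and rpoC2 were lost when either 24 h array was left out, and that of rpoC2 also without 7 d replicate 2.

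Single genes of other plastid complexes also rose. They were accD, a subunit of the acetyl-CoA carboxylase of fatty acid synthesis (change 0.90, adjusted p = 0.033), the ribosomal protein gene rpl20 (1.19), the photosystem II gene psbT (0.85), and ndhE (0.98) and ndhF (1.04) of the NDH complex, which carries electrons around photosystem I. The accD signals were 454 and 296 at 24 h and 670.5 and 707 at 7 d, those of psbT 648 and 454 at 0 h, 397 and 383 at 1 h, 205 and 201 at 24 h and 328 and 418 at 7 d. Of 15 plastid ribosomal protein genes 2 rose and 0 fell (median 0.07). The shares over all probe sets were 4.32% higher and 4.22% lower. Of 10 plastid NDH genes 2 rose and 1 fell (median 0.29), the last being ndhC, at 1954 and 1768 at 24 h and 1157 and 1324 at 7 d (change -0.58, adjusted p = 0.0207). After quantile normalization the change of ndhC was -0.43 (adjusted p = 0.047). Of the 10 NDH genes 1 was then higher and 1 lower, and after median centring 1 was higher and 2 lower. At most 1 of ndhE and ndhF thus kept its call under either scaling. Of 15 photosystem II genes psbT rose and psbF fell, and the median was -0.45, or -0.34 after quantile normalization. The psbF signals were 1960 and 1814 at 24 h and 1254 and 1266 at 7 d (change -0.58, adjusted p = 0.037), and after quantile normalization psbF did not pass (change -0.43, adjusted p = 0.0581). The photosystem I gene psaJ, at 3006 and 2758 at 24 h and 1750 and 1578 at 7 d, fell by 0.79 (adjusted p = 0.00674) and by 0.55 after quantile normalization. In limma's test 0 of the 6 cytochrome b6f genes and 0 of the 6 ATP synthase genes of the plastid passed, against 4 and 3 at an unadjusted p under 0.05, which 27.0% of all probe sets had.

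Of 8 tested nuclear genes of the photosystems, antennae and electron transport, 3 fell and 0 rose, with a median of -0.36. Among all probe sets 4.22% were lower, but among bright ones more were. In the brightest of the 10 classes 193 of 1476 were lower, and of the 100 brightest 30 were, with a median of -0.40. The list median is thus near that of probe sets of the highest brightness. After quantile normalization 2 were lower and 1 higher, and the median was -0.02. The higher one was LHCB4.2 (change 0.60, adjusted p = 0.043, against 0.36 and 0.123 in the deposited scaling). Besides LHCB4.3, the genes that fell in the deposited scaling were PSAE-1 and PSAN, subunits of photosystem I. PSAE-1 read 5768 and 4957 at 0 h, 4988 and 4836 at 1 h, 4775 and 4434 at 24 h and 2661 and 2825 at 7 d and fell by 0.75 (SE 0.10, adjusted p = 0.00532). After quantile normalization its fall was 0.37 (adjusted p = 0.026). PSAN read 2952 and 3047 at 24 h and 2279 and 2354 at 7 d and fell by 0.37 (adjusted p = 0.0467), and after quantile normalization it did not pass (change -0.10, adjusted p = 0.467). RCA, the activase of Rubisco, read 5935 and 5056 at 0 h, 4813 and 4692 at 1 h, 5464 and 5787 at 24 h and 3482 and 3404 at 7 d and fell by 0.71 (SE 0.10, adjusted p = 0.00604), or 0.28 after quantile normalization (adjusted p = 0.0389). AT4G01150, annotated as CURT1A, which bends thylakoid membranes, fell by 0.46 in the deposited scaling and did not pass after quantile normalization (change -0.11, adjusted p = 0.354). All of these but LHCB4.3 are bright, so the brightness trend described above touches them. The antenna gene LHCB4.1 turned from -0.28 to 0.16 after quantile normalization and passed in neither.

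Some nuclear genes for assembly of the photosynthetic complexes rose. Of 6 photosystem II assembly factors 1 rose and 0 fell, and of 9 nuclear NDH subunits and chlororespiratory reduction factors 2 rose and 1 fell. Among all probe sets 4.32% were higher and 4.22% lower. The second list had 1 higher after quantile normalization and 0 after median centring, with 1 lower in each. The first list had 1 higher under both. LPA19, of the first list, rose by 0.88 (adjusted p = 0.0179), with signals of 129 and 145 at 0 h, 169 and 142 at 1 h, 112 and 92.1 at 24 h and 209.6 and 176 at 7 d. NdhS, the ferredoxin-binding subunit of NDH, rose by 0.67, and CRR42, needed for NDH accumulation, by 1.04. CRR41 fell by 0.72, at 141 and 109.8 at 24 h and 86.1 and 62.4 at 7 d. CaS, the thylakoid calcium sensor, rose by 0.50, and GSA1, of the first steps of chlorophyll synthesis, by 0.53. Of 8 genes of tetrapyrrole and chlorophyll synthesis GSA1 alone passed, and after median centring 0 did. GSA1 read 502 and 538 at 24 h and 744 and 757 at 7 d, and its 7 d arrays were also above both warm arrays, at 591 and 696.

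Genes of membrane lipids, growth and signalling were among those that fell. The share over all probe sets, for the counts that follow, was 4.22% lower and 4.32% higher. Of 4 tested genes of phosphatidylcholine synthesis 2 fell and 0 rose. PMEAMT, which methylates phosphoethanolamine, read 697 and 703 at 0 h, 709 and 691 at 1 h, 457 and 436 at 24 h and 179 and 219 at 7 d and fell by 1.15 (SE 0.13, adjusted p = 0.00241). CCT2, which makes CDP-choline, read 43.2 and 35.2 at 0 h, 62.1 and 42.6 at 1 h, 368 and 316 at 24 h and 167 and 171 at 7 d and fell by 0.99 (SE 0.19, adjusted p = 0.0196). The first was lower than in the warm at 24 h and lower again at 7 d, the second far above its warm level at both times. XERICO, a RING protein that raises abscisic acid, fell by 1.64 (adjusted p = 0.00756). Of 7 other ubiquitin ligases tested, PUB19, a U-box ligase of drought and abscisic acid responses, was the only one past the threshold, falling by 1.47 from 246 and 414 to 110.5 and 113. Of 4 tested genes listed for auxin response, all of the GH3 family, which conjugates amino acids to hormones, GH3.3 fell by 1.41. The others, WES1, GH3.17 and GH3.9, did not pass, with differences of 0.25, -0.26 and -0.05. The homeodomain factor HAT2, outside that list and picked out after its value was seen, fell by 1.19. SERPIN1, an inhibitor of proteases, read 249 and 244 at 0 h, 222 and 214 at 1 h, 1484 and 1540 at 24 h and 570.5 and 500.0 at 7 d and fell by 1.49 (SE 0.12, adjusted p = 0.000795). AtRZ-1c, a zinc finger RNA-binding protein of the glycine-rich class, read 199 and 213 at 0 h, 183 and 206 at 1 h, 354 and 448 at 24 h and 183 and 151 at 7 d and fell by 1.23 (SE 0.16, adjusted p = 0.00478).

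Of 10 tested expansins of all families 2 fell and 1 rose, against 4.22% lower and 4.32% higher among all probe sets. All 3 calls were of the 3 expansin-like genes. That smaller list was split off with earlier results of these data known, so its own share is not set against that of all probe sets. Expansins are wall proteins that loosen the wall during growth, and the expansin-like A and B families are related to them. EXLA1 read 56.7 and 32.7 at 0 h, 273 and 211 at 1 h, 239.6 and 258 at 24 h and 35.3 and 27.7 at 7 d and fell by 2.77 (SE 0.24, adjusted p = 0.00117). Its 1 h arrays were also far above the warm ones, and at 7 d its arrays lay within or under the warm range. EXLA2 fell by 1.62, from 106 and 85.4 to 37.996 and 18.7. EXLB1 rose by 1.26, from 28.1 and 51.9 to 94.3 and 106. That call was lost after quantile normalization and after median centring, where 2 expansin-like genes were lower and 0 higher. Of 7 alpha- and beta-expansins 0 passed in limma's test and 3 had an unadjusted p under 0.05, against 27.0% of all probe sets, and their differences ran from -0.07 (EXPA4) to 0.81 (EXPA8). COB, which orients cellulose, fell by 0.60, and the microtubule-associated SP1L4 by 1.56. Of 16 TRICHOME BIREFRINGENCE-LIKE genes, a family of wall acetyltransferases, TBL26 and TBL35 rose by 0.89 and 0.86 and 0 fell. In this family 1 was higher and 0 lower after quantile normalization, and 1 higher and 1 lower after median centring.

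**Figure D5:**
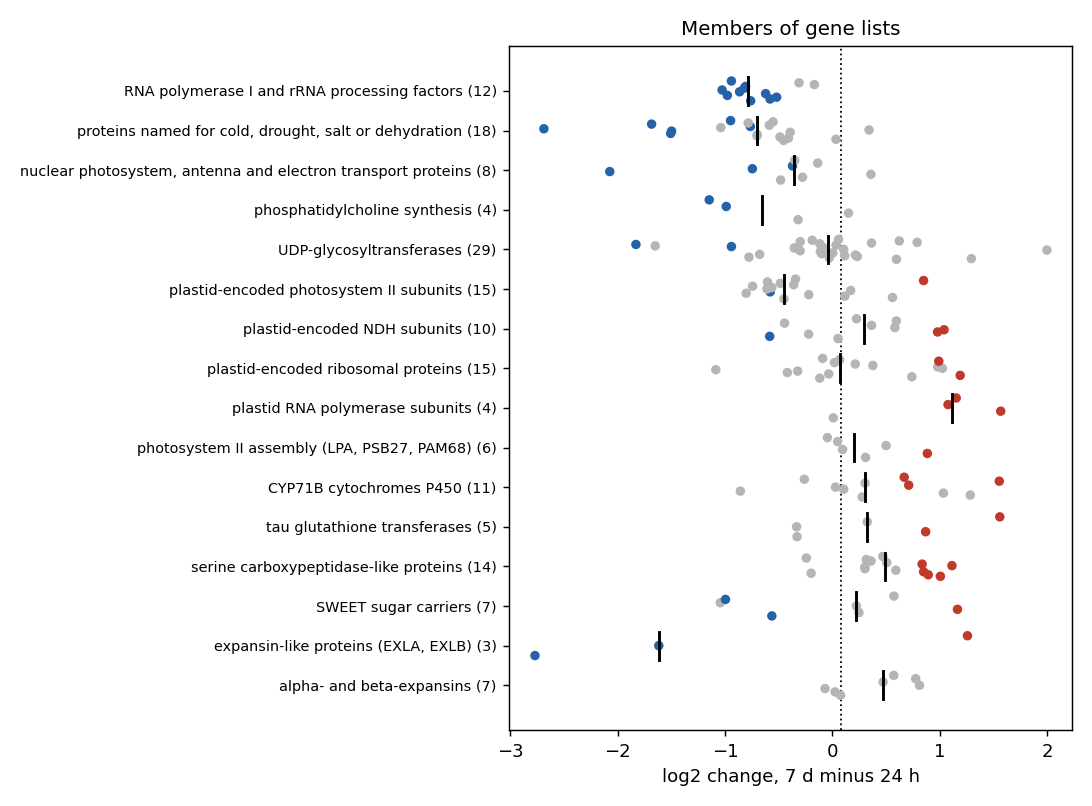
log2 change from 24 h to 7 d (x axis) of the tested members of 16 gene lists, with their number in brackets. Red members rose, blue members fell and grey members did not pass, the black bar is the list's median and the dotted line the median of all probe sets (0.08). The polymerase I list lies below 0 throughout and 3 of 4 plastid polymerase genes lie above 1.

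Most of the largest rises were of genes below their warm level at 24 h. AT1G54820 read 225 and 188 at 0 h, 206 and 172 at 1 h, 48.5 and 48.4 at 24 h and 208 and 214 at 7 d. Its replicates were nearly equal at each time in the cold from 24 h, the 7 d arrays lay within the warm range, and it rose by 1.99 (SE 0.15, adjusted p = 0.000756). AT3G04210 had the largest rise, 2.50 (SE 0.24, adjusted p = 0.00153), with signals of 288 and 344 at 0 h, 442 and 409 at 1 h, 54.1 and 39.4 at 24 h and 223 and 376 at 7 d. AT1G52000 read 88.2 and 99.01 at 0 h, 77.3 and 63.2 at 1 h, 22.6 and 14.6 at 24 h and 134 and 121 at 7 d and rose by 2.45 (SE 0.20, adjusted p = 0.000797). AT1G68600 rose by 1.97 and AT2G23680 by 1.82. Others had no clear dip at 24 h. AT1G30250 read 214 and 106 at 0 h, 104 and 72.3 at 1 h, 97.5 and 101 at 24 h and 461 and 415 at 7 d and rose by 2.08 (SE 0.29, adjusted p = 0.00619), AT3G53980 read 2.97 and 27.7 at 0 h, 5.53 and 4.63 at 1 h, 15.1 and 25.005 at 24 h and 119.7 and 118 at 7 d and rose by 2.28 (SE 0.52, adjusted p = 0.0335), and AT3G60290 read 33.4 and 40.1 at 0 h, 47.6 and 44.1 at 1 h, 40.2 and 22.9 at 24 h and 98.5 and 161 at 7 d and rose by 1.85 (SE 0.28, adjusted p = 0.00828). In these the 7 d arrays were the highest of the series. Of the 12 largest rises, 5 passed without each of the 4 arrays and under every other setting: AT3G04210, AT1G52000, AT1G30250, AT1G54820 and AT1G68600. The count was 7 without 24 h replicate 1, 6 without 24 h replicate 2, 8 without 7 d replicate 1 and 6 without 7 d replicate 2. All 12 have only a locus tag. AT3G15550 and AT3G14395 reached the signal needed for testing on their 7 d arrays alone, so they had to differ to be tested.

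Side by side with the warm control, the probe sets that changed at least 2-fold had these levels. The median signal of the 208 that were higher at 7 d was 87.7 at 0 h, 93.3 at 1 h, 43.0 at 24 h and 113 at 7 d. That of the 232 that were lower was 98.7 at 0 h, 111 at 1 h, 305 at 24 h and 116 at 7 d. The median log2 difference from the warm control of the first set was -1.10 at 24 h and 0.23 at 7 d, and of the second 1.48 and 0.20. These differences share the control, 24 h and 7 d arrays, and the sets were chosen on the same 24 h arrays, so they are a description without a test.

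Some enzymes of detoxification and of small molecule metabolism rose. Of 5 tested tau-class glutathione transferases, which couple glutathione to reactive compounds, GSTU27 and GSTU18 rose and 0 fell. The shares over all probe sets were 4.32% higher and 4.22% lower. GSTU27 read 310.4 and 308 at 0 h, 263 and 335 at 1 h, 87.6 and 103 at 24 h and 234 and 361 at 7 d. The 24 h arrays were lowest by far, and it rose by 1.56 (SE 0.21, adjusted p = 0.00537). GSTU18 read 226 and 242 at 0 h, 193 and 143 at 1 h, 59.6 and 57.5 at 24 h and 117 and 107 at 7 d and rose by 0.87 (SE 0.17, adjusted p = 0.0189), remaining below both warm arrays. The call of GSTU18 was lost without each of the 4 arrays in turn. Of 11 CYP71B cytochromes P450, CYP71B36, CYP71B34 and CYP71B6 rose by 1.55, 0.71 and 0.67, and 0 fell. After quantile normalization 2 of the 11 were higher, and after median centring 2. The counts of CYP71B rises were 0 without 24 h replicate 1, 24 h replicate 2 or 7 d replicate 2, and 1 without 7 d replicate 1. NQR at AT1G49670 rose by 1.16, while the gene of the same symbol at AT3G27890 did not pass. VTC4, an enzyme of ascorbate and inositol synthesis, rose by 1.03, from 128 and 164 to 298 and 306.

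Of 14 serine carboxypeptidase-like proteins, a family named for peptidases and holding some acyltransferases, 5 rose and 0 fell, with a median change of 0.49. Among all probe sets 4.32% were higher, but the list was assembled with earlier results of these data known. After quantile normalization 2 members of the family were higher, and after median centring 4. SCPL26 read 373 and 361 at 0 h, 339 and 347 at 1 h, 181 and 155 at 24 h and 402 and 339 at 7 d, overlapped its warm arrays again at 7 d and rose by 1.11 (SE 0.14, adjusted p = 0.004). SCPL27, SCPL34, SCPL45 and SCPL29 rose by 1.00, 0.89, 0.85 and 0.83. Without single arrays the count was 1 without 24 h replicate 1, 24 h replicate 2 or 7 d replicate 1, and 3 without 7 d replicate 2. Of 29 UDP-glycosyltransferases, which add sugars to small molecules, 2 fell and 0 rose, a count near the 4.22% lower among all probe sets. UGT84A3, which makes glucose esters of hydroxycinnamates, read 61.02 and 54.4 at 0 h, 44.3 and 75.3 at 1 h, 185 and 217 at 24 h and 38.8 and 69.2 at 7 d and fell by 1.83 (SE 0.28, adjusted p = 0.00939). UGT78D2, a flavonoid glucosyltransferase, fell by 0.94 (adjusted p = 0.0381), and it was the only one to pass of 5 genes of phenylpropanoid, flavonoid and anthocyanin synthesis. DFR, of anthocyanin synthesis, read 31.6 and 57.5 at 24 h and 13.1 and 32.4 at 7 d, and its times overlapped.

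Transporters changed one by one. SWEET proteins carry sugars across membranes. SWEET13 read 32.9 and 31.7 at 0 h, 17.5 and 27.4 at 1 h, 104 and 126 at 24 h and 275 and 253 at 7 d and rose by 1.16 (SE 0.19, adjusted p = 0.0127), with 24 h above warm and 7 d above 24 h. SWEET1 read 160.0 and 167 at 0 h, 176 and 183 at 1 h, 464 and 492 at 24 h and 320.0 and 322 at 7 d and fell by 0.56 (SE 0.12, adjusted p = 0.0253). SWEET2 read 135 and 197 at 0 h, 157 and 206 at 1 h, 167 and 151 at 24 h and 83.96 and 69.9 at 7 d and fell by 1.00 (SE 0.21, adjusted p = 0.0251). The other 4 SWEET genes tested did not pass, and over all probe sets 4.32% were higher and 4.22% lower. GTR2, a glucosinolate transporter, read 219.7 and 266 at 0 h, 245 and 273 at 1 h, 90.1 and 96.98 at 24 h and 192 and 235 at 7 d and rose by 1.13 (SE 0.16, adjusted p = 0.00609). Of 6 genes of starch, sucrose and raffinose metabolism 0 passed in limma's test and 3 had an unadjusted p under 0.05 (27.0% over all probe sets), with differences from -0.62 (SBE2.2, a starch branching enzyme) to 1.00 (APL3, a subunit of ADP-glucose pyrophosphorylase).

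Among signalling genes, RR16, a response regulator of cytokinin signalling, read 94.1 and 76.2 at 0 h, 99.1 and 63.8 at 1 h, 16.96 and 22.2 at 24 h and 42.4 and 100.3 at 7 d and rose by 1.49 (SE 0.35, adjusted p = 0.0361), with 7 d arrays far apart. CML30, a calmodulin-like protein, read 54.2 and 34.5 at 0 h, 38.98 and 31.2 at 1 h, 6.405 and 3.99 at 24 h and 24.04 and 23.6 at 7 d and rose by 1.42 (SE 0.27, adjusted p = 0.0202). Its 24 h arrays were near the pseudocount. Of 6 tetraspanins, membrane proteins, TET7 and TET10 rose by 0.75 and 0.89 and TET3 fell by 0.66, from 418 and 423 to 265 and 263. Over all probe sets 4.32% were higher and 4.22% lower. The beta-glucosidases BGLU16 and BGLU44 rose by 0.78 and 0.63. In mitochondria, NDB1, an external NADPH dehydrogenase, rose by 0.89 and SDH2-1, a subunit of succinate dehydrogenase, fell by 0.53. The call of NDB1 was lost after quantile normalization and after median centring.

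Many groups gave no call. Of 63 lists with at least 3 tested members, 21 had no member past limma's threshold and 14 had exactly 1. The 21 lists held 124 genes, of which 30 had an unadjusted p under 0.05, 15 of them higher and 15 lower at 7 d, a share close to the 27.0% of all probe sets. With the median change in brackets, they included 10 tubulins and actins (-0.08), 6 cell cycle genes (-0.04), 6 WRKY factors (0.03), 6 bHLH factors (0.06), 6 peroxidases (-0.10), 10 autophagy and senescence genes (0.22), 7 subtilases (0.19) and 18 exocyst and ESCRT genes (0.03). The sign of such small medians hung on single arrays: without one array of 24 h or 7 d the median reached 0.09 for tubulins and actins, 0.18 for cell cycle genes, -0.05 for bHLH factors, 0.05 for peroxidases and -0.02 for exocyst and ESCRT genes. The median standard error of a change was 0.19, and the smallest change that passed was 0.36, so smaller differences were not called with 2 arrays per time. WRKY53, a senescence factor, shows the spread behind some of these: it read 35.5 and 77.9 at 0 h, 238 and 286 at 1 h, 19.6 and 40.6 at 24 h and 39.97 and 189.6 at 7 d (change 1.45, adjusted p = 0.167). A further 227 probe sets differed at least 2-fold without passing.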

How the data were processed

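The 8 arrays, 2 at each of 4 times, were grouped by the time in their labels, with replicate numbers from their titles. The deposited values are intensities, MAS5 signals on a linear scale with the deposited scaling kept. The authors' processing notes name MAS5, and its version, the priming of the labelling and scan dates are not given in the sources used here. Plastid transcripts mostly lack the tail that oligo-dT priming needs, so their signals may depend on that priming.

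The table holds 22810 probe sets, 64 of them controls that were dropped. A single gene is annotated for 13513, several for 503 and none for 8730, and 13436 were matched to RefSeq's TAIR10.1 table, used for names alone. Of the 13513, 11962 gave only a locus tag. A gene with more than 1 probe set was represented by its brightest.

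Values were used as log2(signal + 6.07), the 20th percentile of the table being the pseudocount, which understates changes of dim genes. The test took in probe sets that reached the 40th percentile of an array on 2 or more arrays. In limma 3.58.1 under R 4.3.3, lmFit estimated a mean per time from all 8 arrays and eBayes, with a trend of variance on level, gave the contrast of 7 d with 24 h (4 residual degrees of freedom per probe set). Tests were two-sided, with Benjamini-Hochberg adjusted p under 0.05. Every adjusted p is from this fit or its named alternative. The number of arrays limits the precision. Across probe sets, r was from 0.964 to 0.975 between replicate arrays and from 0.930 to 0.952 between 24 h and 7 d arrays. The script was tested on simulated data.

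The rule for named genes took the 12 largest rises and 12 largest falls of probe sets past the threshold with 1 gene and separated arrays, up to 4 members of each list with the smallest adjusted p, and the tested COR, early cold, clock and flowering genes. Others were singled out after their values were seen (XERICO, SP1L4, DI21, SERPIN1, AtRZ-1c, HAT2, YAO, LHCB4.1, LHCB4.2, COB, rpoA, accD, GTR2, NQR, RR16, CaS, VTC4, RRP41, RRP41L, and the list members RBL, IMP4, AT5G41190, AT5G52820, SCPL27, WES1, GH3.17, GH3.9, DFR, SBE2.2, APL3, WRKY53, EXPA4 and EXPA8). The comparison and the 98 lists, 27 of them assembled from the gene names, were chosen with earlier results of these data known. Among those 27 were the lists of nuclear and plastid RNA polymerases, and those of plastid-encoded ribosomal proteins and photosynthetic complexes. Others were nuclear NDH, photosystem II assembly, cold or drought names, phosphatidylcholine, tau-class transferases, CYP71B, carboxypeptidase-like, SWEET, tetraspanin, TRICHOME BIREFRINGENCE-LIKE, BGLU, and the 2 expansin families. Lists are described by counts and medians, with no set test. Alternatives were other scalings, pseudocounts, filters, no variance trend, the 2 times alone, the replicate number as a block, and each array left out. Promoter motifs, planned as a description, were not analysed here, since no promoter sequences were at hand.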

Additional observations from a re-analysis of the deposited data

How the results depend on the processing

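The counts of 637 higher and 622 lower probe sets were 403 and 579 after quantile normalization, 396 and 1005 after median centring, 342 and 422 with no filter on low values, 409 and 402 with no variance trend, and 327 and 579 with the 24 h and 7 d arrays alone. Pseudocounts of 1 and 32 and the 60th percentile filter moved neither count by over 1.5 times. With the replicate number as a block they were 1388 and 1093 and included all 637 and 622. Same-numbered arrays deviated together between every pair of times (r from 0.164 to 0.363), a hint from the data alone, since the labels do not say what a number marks and each time has only 2. The block lost no call of a named gene, took the COR list from 1 fall to 3, and gave at least 1 call in 11 of the 21 lists that had none, 11 members higher and 9 lower. In these counts of members a gene on more than 1 list is counted for each. Leaving out 1 array gave from 101 to 485 higher and from 135 to 594 lower, lowest without 24 h replicate 2, which leaves 1 array at that time, assumed to vary like the others.

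Of the 103 genes that passed and were taken for description, no gene changed direction under any of the 17 alternatives. The other genes that passed were not checked for this. Of genes that did not pass, LHCB4.1 turned to 0.16 after quantile normalization and rpoA to -0.10 after median centring. Leaving out 1 array took STZ from -1.41 to 0.31, NQR at AT3G27890 from -0.10 to 0.74 and rpoA from -0.16 to 0.18. It took the median of plastid-encoded ATP synthase subunits from -0.60 to 0.19, and the 60th percentile filter, which tests fewer members, took that of SWEET sugar carriers to -0.16. The cause was not tested for the changes with a scaling or a single array. Among dim genes a larger pseudocount shrinks changes and their errors by construction, and the median standard error over all probe sets was 0.21 with a pseudocount of 1 and 0.14 with 32.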
